A study of Bos taurus with 33 samples.

Results

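The RAB genes of the bovine oocyte and of the cumulus cells (CC) around it are described here in pools from preovulatory follicles. Members were all genes whose symbol is RAB followed by digits and at most one letter from A to D, and the oocyte and CC tables were joined by Ensembl identifier. This gave 55 RAB genes of 17543 genes in either table. Both tables held 53 of them, while RAB19 and RAB36 were only in the CC table, with at most 2.93 and 1.54 CPM in a pool. CPM are the reads of a gene scaled to one total of reads on genes in every pool. The CC table gave no symbol for RAB5C, RAB6A, RAB27A and RAB40B, which were matched by their identifiers.

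Each pool held 4 oocytes, or the CC of 4 complexes, from suckled beef cows, each aspirated for its largest follicle. The CC were those of the pooled oocytes by the study's methods, so the cell types share animals. Small follicles measured up to 11.7 mm and large follicles at least 12.7 mm, and in both the gonadotropin surge was induced by a second GnRH injection (GnRH2) in cows that had not shown estrus. Spontaneous follicles, of 11.7 to 14.0 mm, came from cows in estrus with an endogenous surge and without GnRH2. All cows had received the same first GnRH and prostaglandin F2 alpha injections, and follicles were aspirated about 20 or 23 h after GnRH2 or estrus, since the labels give both times. There were 6 small, 6 large and 4 spontaneous oocyte pools and 6 small, 6 large and 5 spontaneous CC pools. A pool averages 4 complexes, so p-values measure the spread between pools and not between single cows. In the comparisons with spontaneous follicles, surge type cannot be told apart from estrus, the GnRH2 injection or the differing follicle diameters.

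RAB proteins are small GTPases that mark the membranes of a cell and direct vesicle budding, movement and fusion. Guanine nucleotide exchange factors (GEFs) load a RAB with GTP, effectors such as tethers and motor proteins bind the loaded form, GTPase-activating proteins (GAPs) end the cycle, and GDP dissociation inhibitors (GDIs) carry the lipid-anchored protein between membranes. In oocytes vesicle traffic serves cortical granule secretion, receptor recycling and spindle positioning. In CC it serves the secretion of the hyaluronan-rich matrix and the delivery of receptors and gap junction proteins to the cell surface.

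Library totals, counted on genes, ran from 7664375 to 17934916 reads in oocytes and from 1911600 to 5772431 in CC, so that 3 reads, the limit that a count of 0 allows, were worth at most 0.391 CPM in oocytes and 1.57 CPM in CC. It takes account of counting error alone, since several reads can stem from one amplified molecule. Mitochondrially encoded genes took 0.846 to 5.0% of reads in oocyte pools and 12.6 to 44.0% in CC pools. The sum of 12 oocyte markers was between 10744 and 15463 CPM in oocytes, and that of the 7 found in the CC table was at most 6.76 CPM in CC. The sum of 12 cumulus and granulosa markers was between 10449 and 32543 CPM in CC and between 810.3 and 4363 CPM in oocytes, with a median in oocytes of 8.43% of that in CC. Markers taken one at a time were not alike in this: FSHR had a median of 0 in oocytes and 53.9 CPM in CC, VCAN stood at 5.46% of its CC median and PTGS2 at 8.82%, whereas CD44, HAS2 and STAR had higher medians in oocytes than in CC. Summed over 6 theca markers, oocytes had between 3.36 and 144 CPM and CC between 267 and 1326 CPM, and over 10 white blood cell markers 133 to 285 and 50.6 to 336 CPM, with CORO1A at 0 in every oocyte pool. Only 2 of the 10 white blood cell markers averaged at least 5 CPM in oocytes, whereas all 10 did in CC. The part of carried-over CC transcripts in the oocyte values below was not tested.

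RAB transcripts took a larger share of the reads in oocytes than in CC. Summed over the 53 genes in both tables, they reached 5513 to 6787 CPM in the 16 oocyte pools (median 6046) and 1799 to 3486 CPM in the 17 CC pools (median 2847), and the cell types did not overlap. Without mitochondrially encoded genes the sums were 5705 to 6868 CPM in oocytes and 2499 to 3999 CPM in CC, which did not overlap either. The tables were scaled separately by the authors, so oocytes and CC were compared by whether their pools overlapped and not by a test. A difference in CPM between these cell types is one of shares of reads, and less RNA per cell cannot be told apart from a smaller share of it.

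Every oocyte pool lay above every CC pool for 10 of the 53 RAB genes (18.9%), and this held for 17.5% of the 14980 genes in both tables. Every CC pool lay above every oocyte pool for 3 RAB genes (5.66%), against 10.6% of all genes. The shares of separated RAB genes were thus near or below those of all genes. The median difference, oocyte minus CC, in mean log2(CPM + 1) was 0.45 over the RAB genes and -0.04 over all genes, and 35 RAB genes had the higher mean in oocytes. Leaving out mitochondrially encoded genes shifted the median of all genes by -0.14, to -0.18, and that of the RAB genes to 0.18. The sign then changed for RAB1A, RAB32 and RAB39A. The 10 genes above in oocytes were RAB2B, RAB3C, RAB5B, RAB6A, RAB7A, RAB9A, RAB10, RAB15, RAB30 and RAB35, of which RAB5B and RAB30 overlapped without mitochondrially encoded genes. The 3 above in CC were RAB12, RAB13 and RAB29. Of these, RAB29 lay near the floor: its lowest CC pool held 0.677 CPM, or 3 reads, only 0.622 CPM above its highest oocyte pool.

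**Figure D1:**
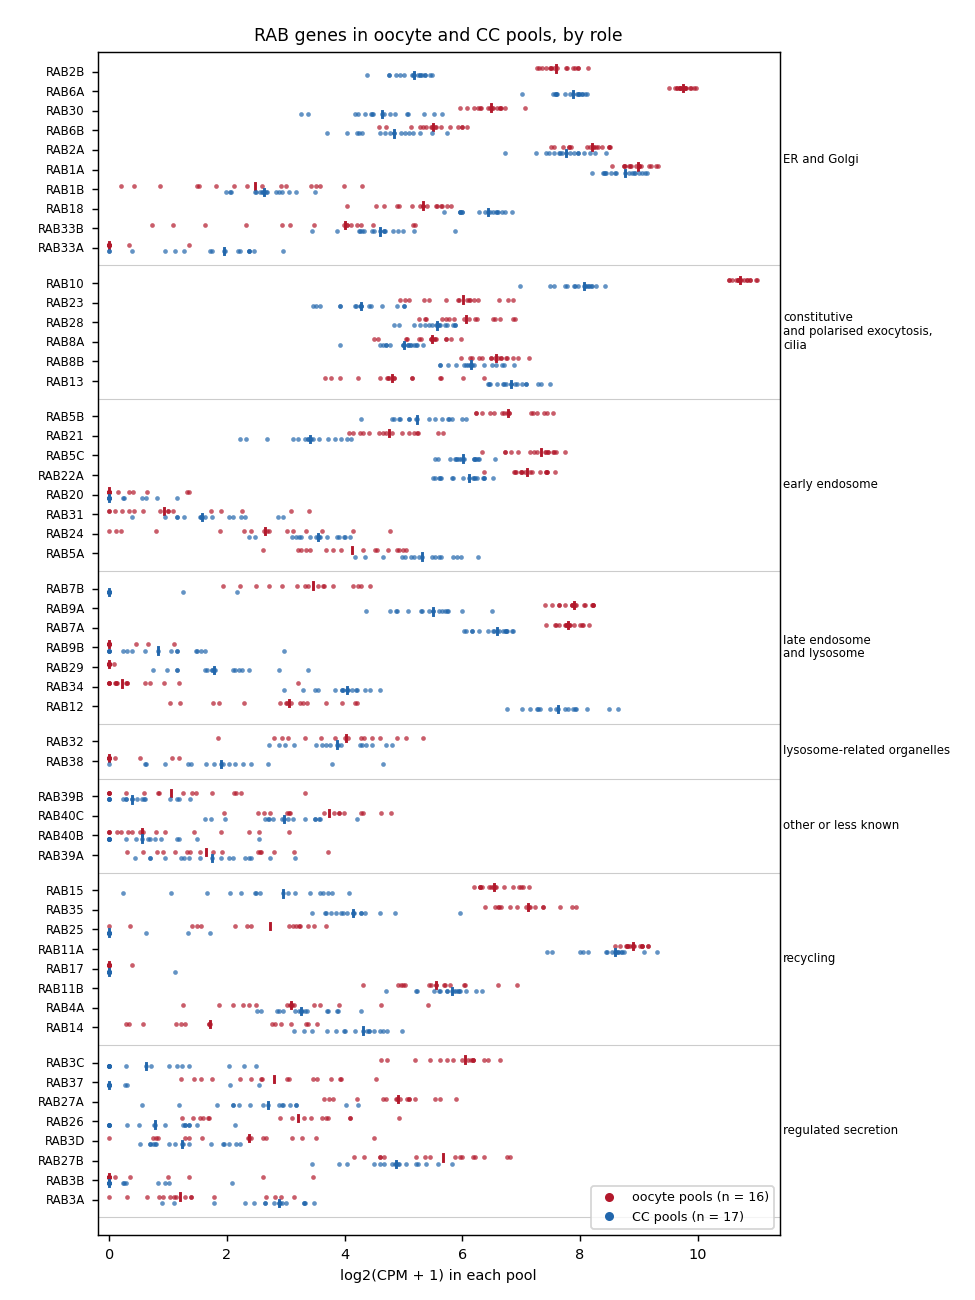
Level of the 53 RAB genes in both tables, as log2(CPM + 1), in each oocyte pool (red points, n = 16) and CC pool (blue points, n = 17), with a bar at the median pool and the genes grouped by role. Red and blue points stand apart for 13 genes, 10 with oocytes above and 3 with CC above, and overlap for 40.

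RAB10 and RAB13, which serve transport from the Golgi and endosomes to the plasma membrane, stood in opposite order in the 2 cell types. RAB10 (ENSBTAG00000000985), known for the delivery of the glucose transporter GLUT4 and of membrane to the cell surface, had 1479 to 2051 CPM in oocyte pools (median 1693) and 126 to 342 CPM in CC pools (median 268.4). Its lowest oocyte pool was 1137 CPM above its highest CC pool, and its mean was 6.91 times as high in oocytes. RAB10 alone made up 26.1 to 31.8% of the summed RAB CPM of an oocyte pool and 6.42 to 10.95% of that of a CC pool. The rest of the family still did not overlap between the cell types, with 3984 to 4736 CPM in oocytes and 1674 to 3144 CPM in CC.

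RAB13 (ENSBTAG00000017604), known for its place at tight junctions, had 11.7 to 81.7 CPM in oocytes (median 27.0) and 85.6 to 178 CPM in CC (median 113), a mean 3.63 times as high in CC. Only 3.86 CPM lay between its highest oocyte pool and its lowest CC pool, and with both tables scaled together by TMM (a scaling that trims extreme genes) the cell types overlapped. Its oocyte median was 23.9% of its CC median, and the part of carried-over CC transcripts in it was not tested. The other members of the group overlapped. RAB8A, which acts in exocytosis and in building cilia, had 21.6 to 62.0 CPM in oocytes and 14.2 to 39.5 CPM in CC, its close relative RAB8B had 62.2 to 139 and 48.0 to 117 CPM, and RAB23, a regulator of Hedgehog signalling at the cilium, had 15 of 16 oocyte pools above every CC pool.

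Of the 10 RAB genes of the endoplasmic reticulum and Golgi in both tables, 3 were above in every oocyte pool and none in every CC pool. RAB6A, which acts in traffic within and from the Golgi, had 728 to 1003 CPM in oocytes (median 856.5) and 129 to 276 CPM in CC (median 233), 3.85 times as high in the mean. RAB2B had 153 to 279 CPM in oocytes (median 191) and 19.9 to 43.7 CPM in CC (median 35.2), 5.93 times as high. RAB30, another Golgi RAB, had 61.4 to 133 CPM in oocytes and 8.58 to 49.1 CPM in CC. In each of these genes all 16 oocyte pools lay above all 17 CC pools.

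RAB1A and RAB2A, known for transport from the endoplasmic reticulum to the Golgi, overlapped between the cell types, unlike the paralogue RAB2B. RAB1A had 374 to 640.2 CPM in oocytes (median 504) and 293 to 566 CPM in CC (median 435), and RAB2A had 182 to 362 and 105 to 347 CPM. The ranges overlapped over most of their width. RAB18, which acts at the endoplasmic reticulum and on lipid droplets, was lower in oocytes, with 15.4 to 55.3 CPM (median 39.3) against 50.5 to 114 CPM in CC (median 85.3). For RAB18, 16 of 17 CC pools lay above every oocyte pool, and all did both under TMM scaling and without mitochondrially encoded genes.

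Among the 8 RAB genes of early endosomes, the 3 isoforms of RAB5, the master regulator of early endosome fusion, did not share one order. RAB5B had 74.2 to 186 CPM in oocytes (median 109) and 18.3 to 65.9 CPM in CC (median 36.4), without overlap. RAB5C had 80.1 to 213 and 45.5 to 92.9 CPM, and 15 of 16 oocyte pools lay above every CC pool. RAB5A went the other way, with 5.09 to 32.0 CPM in oocytes (median 16.5) and 17.1 to 75.9 CPM in CC (median 38.6), and 12 of 17 CC pools lay above every oocyte pool. RAB21, which acts in integrin endocytosis, had 15.9 to 50.3 CPM in oocytes and 3.66 to 16.3 CPM in CC, so that the lowest oocyte pool lay just inside the CC range.

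Of the 8 recycling RAB genes, RAB15 and RAB35 were above in every oocyte pool. RAB35 (ENSBTAG00000022044), which returns cargo from endosomes to the plasma membrane and acts in cytokinesis, had 82.9 to 244 CPM in oocytes (median 138) and 9.92 to 61.6 CPM in CC (median 16.7), 7.46 times as high in the mean. The highest CC value came from 1 pool, large replicate 5, and the next CC pool had 28.1 CPM. RAB15 had 72.3 to 139 CPM in oocytes (median 91.7) and 0.173 to 15.9 CPM in CC (median 6.72), 14.1 times as high. RAB11A, the RAB of the slow recycling endosome, had 385 to 570 CPM in oocytes (median 477) and 173 to 636 CPM in CC (median 386), and the oocyte range lay wholly inside the CC range. RAB14 was low in oocytes, at 0.222 to 10.5 CPM (median 2.26), against 7.83 to 30.4 CPM in CC (median 18.8), and 14 of 17 CC pools lay above every oocyte pool.

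The 7 RAB genes of late endosomes and lysosomes in both tables held the widest contrast between members. RAB12 (ENSBTAG00000010356), which acts in the degradation of recycling receptors and in autophagy, had 107 to 399 CPM in CC (median 198) and 1.03 to 17.6 CPM in oocytes (median 7.34). Its CC mean was 26.7 times its oocyte mean, its difference of -4.77 in mean log2(CPM + 1) was the lowest of the family, and its oocyte median was 3.71% of its CC median. RAB34, which acts in lysosome positioning and ciliogenesis, followed with 6.80 to 23.3 CPM in CC and 0 to 8.27 CPM in oocytes, where small replicate 1 alone exceeded 1.27 CPM. RAB29 had 0.677 to 9.37 CPM in CC and a single read over all oocyte pools.

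RAB7A, which drives the maturation of late endosomes and their fusion with lysosomes, was above in oocytes, with 170.2 to 283 CPM (median 221) against 64.3 to 115 CPM in CC (median 95.7). RAB9A, which acts in the return of mannose 6-phosphate receptors to the Golgi, had 169 to 298 CPM in oocytes (median 236) and 19.6 to 90.1 CPM in CC (median 44.5), 5.48 times as high. Both were without overlap. RAB7B had 2.83 to 20.5 CPM in oocytes (median 10.1) and 0 to 3.51 CPM in CC, where 15 of 17 pools had no read of it. For RAB7B, 15 of 16 oocyte pools lay above every CC pool.

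Regulated secretion was the group with the highest median difference, 1.43 in mean log2(CPM + 1), although only RAB3C was without overlap. Of its 8 genes, 7 passed the filter on low values (given below) in oocytes but only 3 in CC. The median fell between RAB26 (2.09) and RAB3D (0.78), whose highest CC pools held 3.37 and 3.64 CPM. RAB37 (2.51) had no read in 13 of 17 CC pools. The rank of this group thus rests in part on genes near the floor in CC. RAB3C (ENSBTAG00000007306), of the RAB3 group known from synaptic vesicle and granule release, had 23.6 to 99.1 CPM in oocytes (median 65.3) and 0 to 4.63 CPM in CC (median 0.545), with 74 reads over all CC pools. Its difference of 5.06 was the highest of the family. RAB3A, which has been tied to cortical granule release, had 0 to 7.77 CPM in oocytes (median 1.31) and 0.856 to 10.2 CPM in CC (median 6.35), and RAB3D had 0 to 21.6 and 0.428 to 3.64 CPM. RAB27A, which docks secretory granules, had 11.53 to 58.6 CPM in oocytes (median 29.1) and 0.463 to 17.8 CPM in CC (median 5.52), and 12 of 16 oocyte pools lay above every CC pool. For RAB27B, with 16.8 to 111 CPM in oocytes and 9.94 to 55.8 CPM in CC, 8 did.

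RAB32 and RAB38 serve the organelles related to lysosomes, such as melanosomes and platelet granules. RAB32 was about level in the 2 cell types, with 2.62 to 39.3 CPM in oocytes (median 15.3) and 5.54 to 26.9 CPM in CC (median 13.6). RAB38 had 0 to 1.28 CPM in oocytes and 0 to 24.3 CPM in CC, and 13 of 17 CC pools lay above every oocyte pool. The 4 less known members, RAB39A, RAB39B, RAB40B and RAB40C, all overlapped, and only RAB40C passed the filter of at least 5 CPM in 4 oocyte pools or 5 CC pools.

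**Figure D2:**
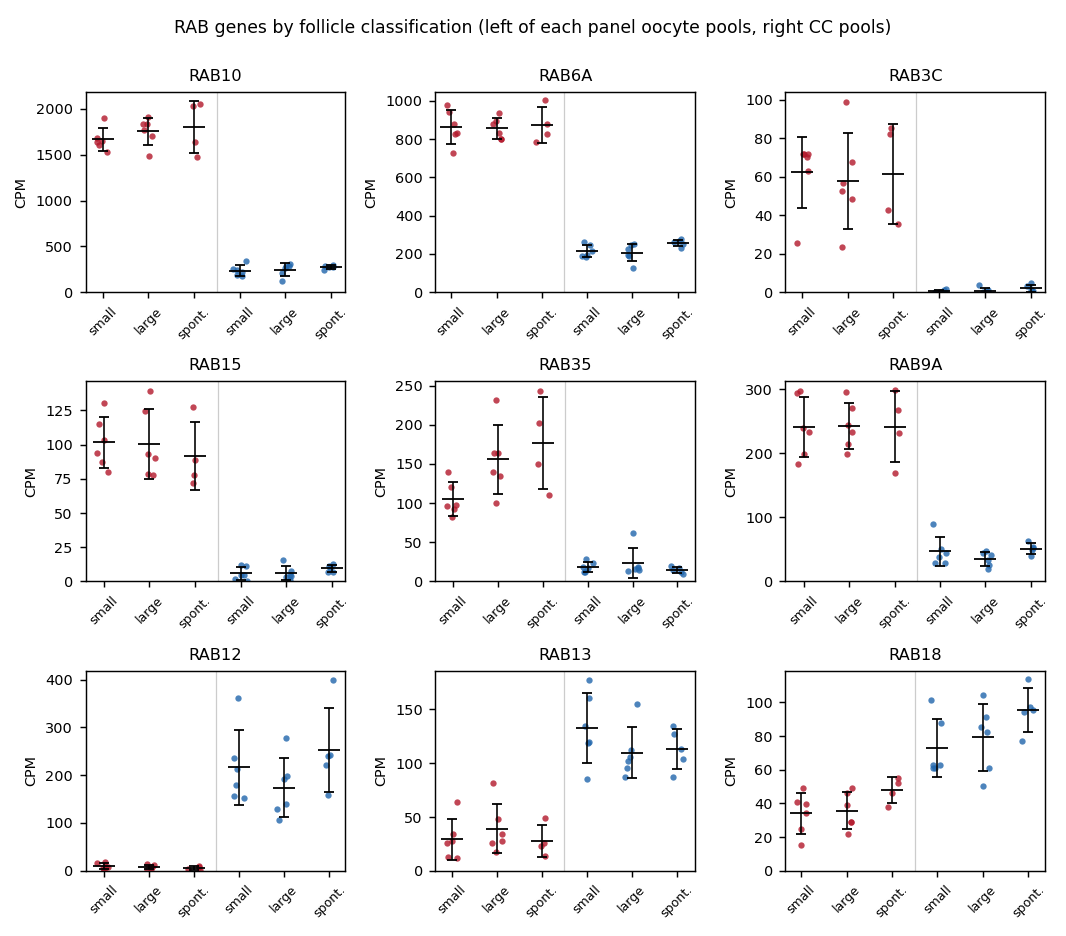
CPM of 9 RAB genes in each pool, with oocyte pools (red) on the left and CC pools (blue) on the right of each panel, by small, large and spontaneous follicles; black bars are mean ± SD (n = 4 to 6 pools). RAB10, RAB6A, RAB3C, RAB15, RAB35 and RAB9A are high in oocytes, RAB12, RAB13 and RAB18 in CC, and the follicle classifications overlap within each cell type.

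Within subfamilies, the share of each paralogue in the summed CPM was compared between cell types. RAB2A gave 42.2 to 66.3% of the RAB2 reads in oocytes (median 57.1%) and 75.1 to 89.8% in CC (median 87.4%), without overlap. In the RAB3 subfamily RAB3C gave 59.0 to 97.7% in oocytes and 0 to 31.8% in CC, and RAB3A gave 0 to 12.9% in oocytes and 28.6 to 93.0% in CC. The CC shares of RAB3 rest on few reads, as few as 8 in a pool. RAB5A gave 1.36 to 13.5% of the RAB5 reads in oocytes and 18.8 to 42.8% in CC, again without overlap.

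In the other subfamilies the ranges of the shares overlapped. The median share of RAB27A in the RAB27 reads was 39.9% in oocytes and 14.2% in CC, that of RAB6B in the RAB6 reads was 5.18 and 10.85%, and that of RAB7B in the RAB7 reads was 4.28 and 0%. The medians lay closer in the next 3 subfamilies. RAB1A gave at least 96.1% of the RAB1 reads in every oocyte pool and 97.9% in every CC pool. RAB8A gave 14.0 to 42.2% of the RAB8 reads in oocytes and 22.5 to 38.9% in CC, and RAB11A gave 82.6 to 96.2 and 76.4 to 91.7% of the RAB11 reads. The shares are of reads and not of molecules, because transcript lengths were not used here, and how reads common to close paralogues were counted is not given in the sources used here.

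**Figure D3:**
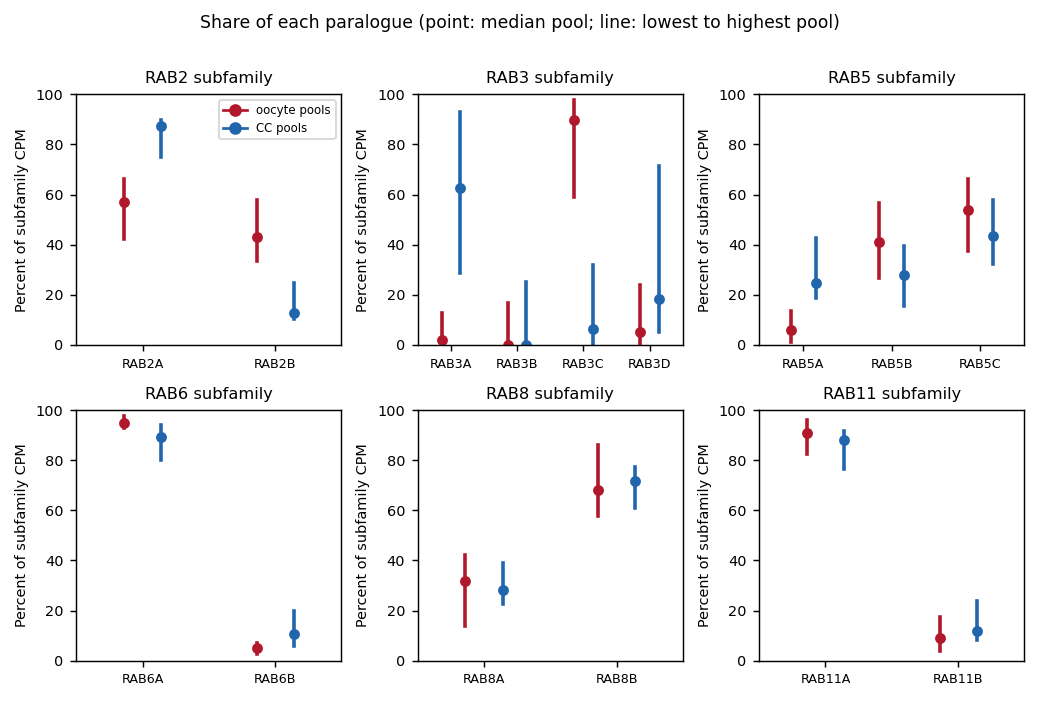
Percent of the summed CPM of 6 RAB subfamilies held by each paralogue, as the median pool (point) and the lowest to highest pool (line), in oocytes (red, n = 16) and CC (blue, n = 17). The lines stand apart for RAB2A and RAB2B, RAB3A and RAB3C, and RAB5A, and overlap for the other paralogues shown.

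The partners of RAB proteins were also divided between the cell types. Of 147 regulators and effectors in both tables, 34 (23.1%) were above in every oocyte pool and 13 (8.84%) in every CC pool, beside 17.5 and 10.6% of all genes. Many of all genes are low: of the 11431 that passed the filter in at least 1 table, 2614 were above in every oocyte pool and 1535 in every CC pool. Some of the 147 partners passed the filter in neither table, so their shares and those of the filtered genes are of unlike sets. Whether the share of partners above in oocytes is raised was not tested. By kind, 9 of 42 GEFs, 7 of 37 GAPs and 18 of 61 effectors were above in oocytes, and 2, 2 and 7 in CC. None of the 5 prenylation and escort genes was above in oocytes.

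Some partners stood in the same order as their RAB gene and others in the opposite one. The partners named here were chosen after their values were seen, from those whose pools did not overlap. DENND1C, a GEF of RAB35, had 36.0 to 125 CPM in oocytes and 0 to 2.72 CPM in CC, the same order as RAB35. The RAB5 partners RABGEF1 (a GEF), USP6NL (a GAP) and EEA1 (a tether) were above in oocytes, with means of 302 ± 58.2, 674 ± 65.8 and 419 ± 55.9 CPM in oocytes and 57.8 ± 13.8, 31.1 ± 8.87 and 67.9 ± 16.1 CPM in CC (SD, n = 16 and 17). Other RAB5 partners, RIN2 (a GEF) and OCRL (an effector), were above in CC, with 14.1 ± 7.46 and 391 ± 122 CPM in CC and 1.19 ± 1.36 and 58.6 ± 22.3 CPM in oocytes. PLEKHM1 and OSBPL1A, effectors of RAB7, and CCZ1, part of its GEF, were above in oocytes too.

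DENND3, the GEF of RAB12, had 107 to 207 CPM in oocytes and 1.99 to 34.5 CPM in CC, the opposite order to RAB12. DENND4C, a GEF of RAB10, and TBC1D4, a GAP of RAB10, were above in CC, opposite to RAB10, with 666 ± 196 and 227 ± 62.9 CPM in CC and 149 ± 36.5 and 24.7 ± 14.2 CPM in oocytes (SD). DENND4A, a related GEF, was above in oocytes, at 256 ± 69.9 CPM against 121 ± 24.0 CPM. PLIN3, an effector of RAB9, was above in CC, with 3.84 to 12.5 CPM against 0 to 3.65 CPM, while RAB9A was above in oocytes.

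Motor proteins and secretory tethers were among the effectors above in oocytes. SYTL2, an effector of RAB27, had 614 to 919 CPM in oocytes and 0 to 39.0 CPM in CC, and SYTL5 and RPH3AL, which bind RAB27 or RAB3, had 6.89 to 46.2 and 21.6 to 65.8 CPM in oocytes and at most 0.304 and 3.32 CPM in CC. MYO5B, the myosin that pulls RAB11 vesicles, had 281 to 742 CPM in oocytes and 0 to 4.29 CPM in CC, whereas its relative MYO5A had 19.7 to 88.4 CPM in oocytes and 103 to 193 CPM in CC. The RAB11 family interacting proteins split as well: RAB11FIP4 had 1.12 to 35.7 CPM in oocytes and at most 0.975 CPM in CC, and RAB11FIP1 had at most 2.23 CPM in oocytes and 2.62 to 29.2 CPM in CC.

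**Figure D4:**
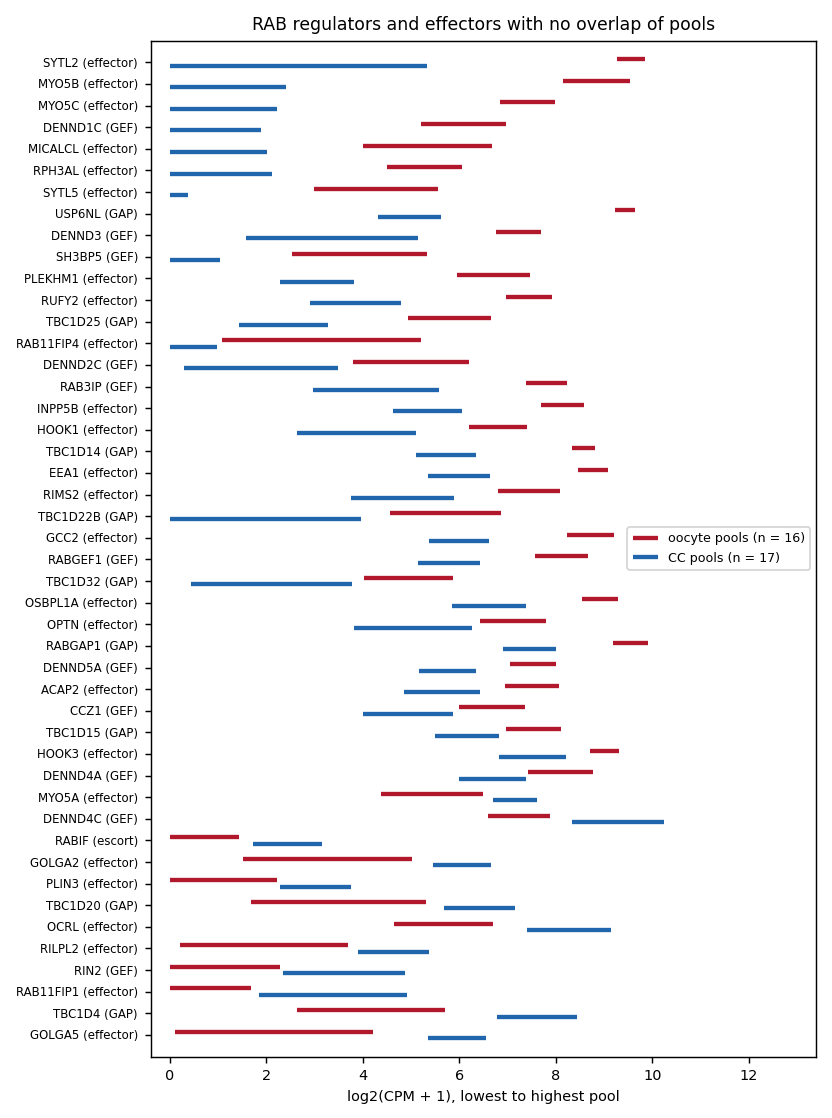
Range from the lowest to the highest pool, as log2(CPM + 1), in oocytes (red, n = 16) and CC (blue, n = 17) for 46 GEFs, GAPs, effectors and escort genes of RAB proteins whose pools did not overlap, with the kind of partner in brackets. Of these, 34 have the oocyte range above and 12 the CC range above, with SYTL2, MYO5B and MYO5C the farthest apart.

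Between follicle classifications, no RAB gene passed the threshold in either cell type. Each comparison was tested with limma on log2(CPM + 1), two-sided, at a nominal p of 0.01 or less, and in oocyte comparisons with small follicles a gene had also to pass without small replicate 3, taken here to be the library that the study left out in a repeat of its analysis. The filter on low values left 41 RAB genes in oocytes and 36 in CC. In oocytes 0 of 41 were called from small to large, small to spontaneous and large to spontaneous, beside 0.655, 0.774 and 0.943% of all 10076 genes tested. In CC 0 of 36 were called in the same comparisons, beside 0.813, 2.38 and 1.66% of 9712 genes. At these shares fewer than 1 call would fall among the members. At an unadjusted p under 0.05 limma gave 1, 2 and 0 RAB genes in oocytes and 0, 2 and 2 in CC, beside 4.11, 4.51 and 4.87% of all genes in oocytes and 4.00, 8.55 and 7.07% in CC, and edgeR and DESeq2 also called 0 at 0.01 in each comparison. The lowest Benjamini-Hochberg adjusted p of a RAB gene was 0.968 in oocytes and 0.556 in CC.

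The intervals show how large a difference could have been missed. The 95% confidence interval of the log2 fold change lay within 1 in either direction for 21, 18 and 20 of the 41 RAB genes in the 3 oocyte comparisons, and for 29, 29 and 27 of 36 in CC. In oocytes the intervals were narrow for RAB10, from -0.12 to 0.26 for small to large, and for RAB6A, from -0.23 to 0.21. The pools of one classification differed least in RAB6A in both cell types, with a standard deviation in log2(CPM + 1) of 0.13 in oocytes and 0.25 in CC. They differed most in RAB24 in oocytes (1.504) and RAB15 in CC (1.01), and the median over the RAB genes was 0.57 in oocytes and 0.47 in CC, beside 0.66 and 0.48 over all genes tested.

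The median change of the RAB genes was close to that of all genes tested. Their median log2 fold change was 0.04, 0.03 and 0.03 in oocytes for small to large, small to spontaneous and large to spontaneous, beside 0.05, 0.05 and 0.01 for all genes. In CC it was 0.09, 0.16 and 0.11, beside 0.05, 0.16 and 0.11. From small to spontaneous CC the estimate was above 0 for 30 of 36 RAB genes and for 6983 of 9712 genes in all. The share of mitochondrial reads had a median of 15.6% in spontaneous CC pools and 23.5% in small ones. Without mitochondrially encoded genes the CC medians of the RAB genes were -0.02, -0.01 and 0.05, and from small to spontaneous CC the median was 0.01 under median-of-ratios scaling, -0.02 by edgeR and -0.03 by DESeq2, so these small medians depend on the scaling.

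RAB35 came closest to the threshold in oocytes. It had 82.9 to 140.4 CPM in small pools (median 97.5), 100.05 to 232 CPM in large pools (median 152), and 111, 202, 150.1 and 244 CPM in the 4 spontaneous pools. The large and spontaneous pools reached higher, but both ranges overlapped with that of small pools. From small to spontaneous the log2 fold change was 0.70 ± 0.25 (SE; limma nominal p = 0.00884, adjusted p = 0.987; exact permutation p = 0.0381), and without small replicate 3 it was 0.64 with p = 0.0209. Without spontaneous replicate 1 it was 0.90 (limma adjusted p = 0.978), which passed also without small replicate 3. From small to large it was 0.54 ± 0.21 (limma adjusted p = 0.997; exact permutation p = 0.0195).

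In oocytes RAB1A had 374 to 511 CPM in small (median 448) and 429.8 to 627 CPM in large pools (median 518), a log2 fold change of 0.25 with an interval from -0.01 to 0.51 (limma adjusted p = 0.997; exact permutation p = 0.0281). RAB5B had 91.7 to 172 CPM in small pools (median 144) and 79.4, 108, 110.1 and 74.2 CPM in spontaneous pools, a log2 fold change of -0.52 from -1.03 to -0.01 (limma adjusted p = 0.987; exact permutation p = 0.0571). The ranges overlapped in both genes. From large to spontaneous, RAB2B had 163 to 248 CPM (median 214) and then 157, 188, 153 and 179 CPM, with a log2 fold change of -0.30 from -0.68 to 0.08 (limma adjusted p = 0.968; exact permutation p = 0.0667). RAB18 had 22.1 to 49.1 CPM (median 34.2) and then 37.7, 46.3, 55.3 and 52.2 CPM, with 0.45 from -0.25 to 1.15 (limma adjusted p = 0.975; exact permutation p = 0.0952).

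In CC the smallest nominal p-values from small to large belonged to RAB8B and RAB33B. RAB8B had 48.2 to 93.9 CPM in small (median 63.9) and 48.0 to 117 CPM in large pools (median 95.4), and RAB33B, a Golgi RAB with a part in autophagy, had 9.94 to 31.0 CPM (median 21.3) and 18.5 to 57.7 CPM (median 24.6). Both overlapped, with log2 fold changes of 0.38 from -0.11 to 0.87 and 0.51 from -0.15 to 1.18 (limma adjusted p = 0.999 for each; exact permutation p = 0.119 and 0.190).

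From small to spontaneous CC, RAB5B had 18.3 to 49.2 CPM (median 31.3) and then 36.4, 53.1, 65.9, 55.5 and 35.9 CPM, a log2 fold change of 0.58 from 0.04 to 1.11 (limma adjusted p = 0.556; exact permutation p = 0.0563). RAB18 had 61.0 to 101 CPM (median 63.0) and then 77.1, 94.2, 95.3, 114 and 97.01 CPM, with 0.41 from 0.01 to 0.80 (limma adjusted p = 0.580; exact permutation p = 0.0390). In RAB18 all spontaneous pools but 1 lay above at least 5 of the 6 small pools, and the ranges overlapped in both genes.

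From large to spontaneous CC, RAB9A had 19.6 to 47.4 CPM (median 37.4) and then 53.1, 39.0, 49.4, 52.6 and 62.6 CPM, a log2 fold change of 0.57 from 0.08 to 1.06 (limma adjusted p = 0.640; exact permutation p = 0.0303). RAB12 had 107 to 278 CPM (median 167) and then 399, 159, 241, 243 and 222 CPM, with 0.54 from 0.02 to 1.06 (limma adjusted p = 0.696; exact permutation p = 0.121). Neither gene was without overlap. RAB12 passed the threshold without large replicate 4, with 0.69 (limma adjusted p = 0.518), and RAB15 did without large replicate 5, with 1.17 (limma adjusted p = 0.547), against 0.85 with all pools.

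**Figure D5:**
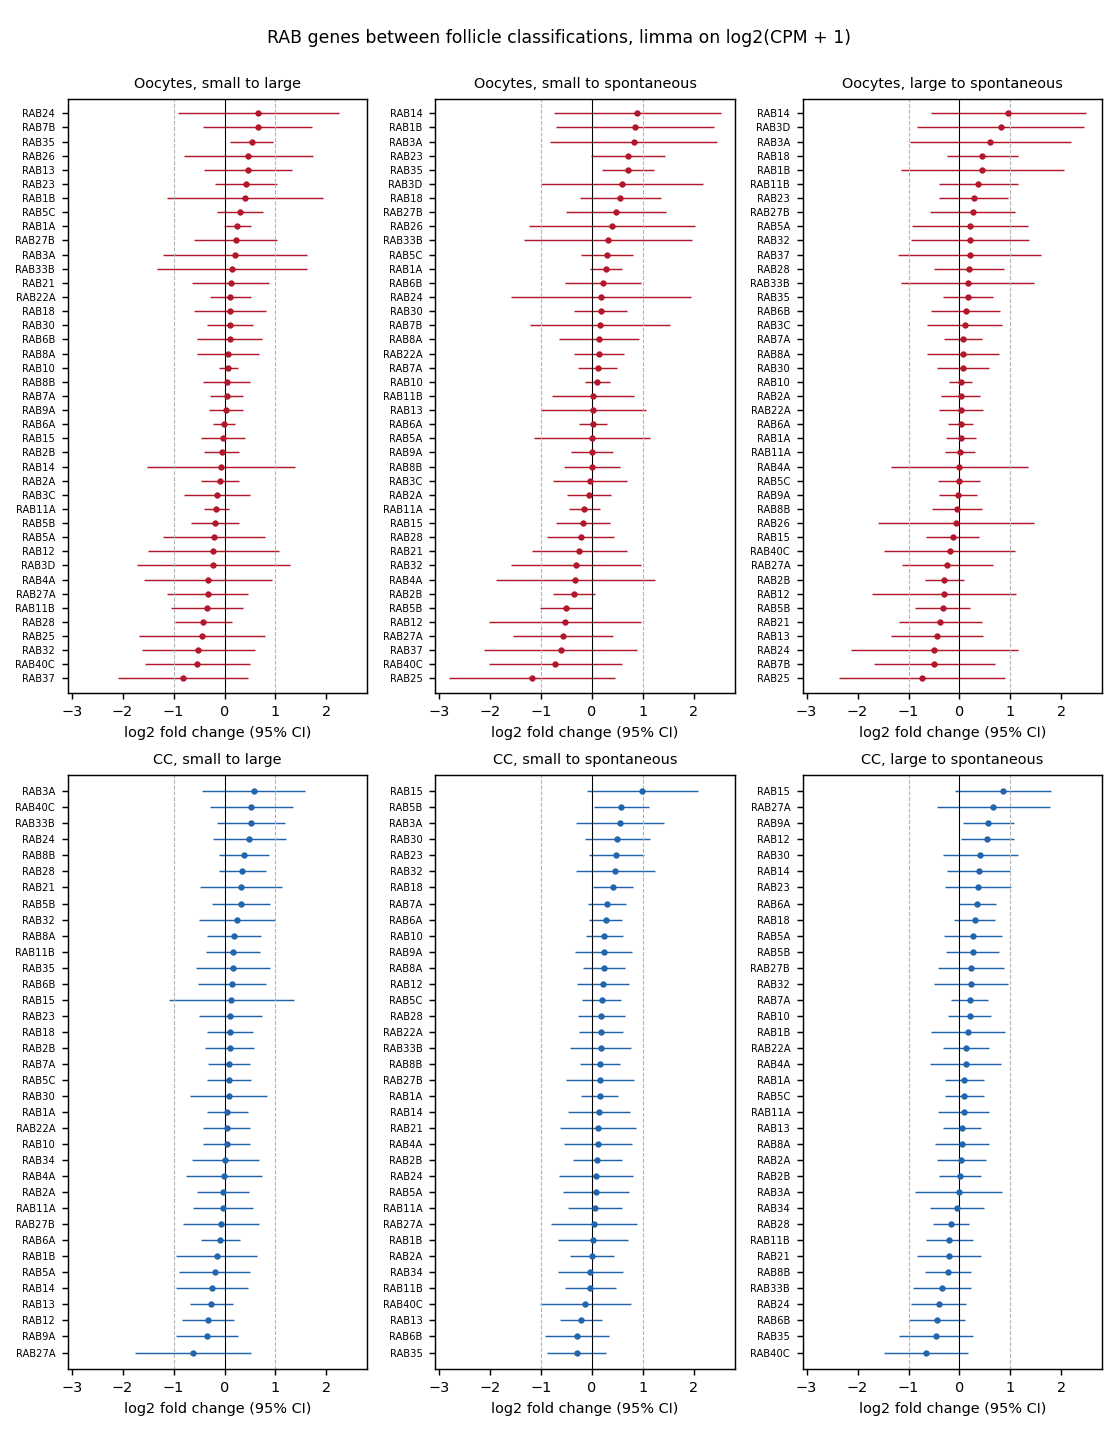
Log2 fold change (second classification minus first) with its 95% confidence interval from limma on log2(CPM + 1), for 41 RAB genes in oocytes (red, upper row) and 36 in CC (blue, lower row), with dashed lines at -1 and 1. Most intervals include 0, those of RAB35 and RAB5B in oocytes and of RAB5B, RAB18, RAB9A and RAB12 in CC leave it in at least 1 comparison, and no gene passed the threshold.

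Among the RAB regulators and effectors 8 genes passed the nominal threshold over the 6 comparisons, and none had an adjusted p under 0.05. Of 118 tested in oocytes, 2, 0 and 1 were called from small to large, small to spontaneous and large to spontaneous (1.69, 0 and 0.847%, beside 0.655, 0.774 and 0.943% of all genes), and of 113 in CC 1, 2 and 2 (0.885, 1.77 and 1.77%, beside 0.813, 2.38 and 1.66%). These shares lie near those of all genes, and the calls are given as values of single genes. Only USP6NL kept its call whichever pool was left out.

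RAB3GAP2, part of the complex that acts on RAB3 and RAB18, rose in oocytes from 115 to 233 CPM in small pools (median 169) to 219 to 266 CPM in large pools (median 243), a log2 fold change of 0.55 ± 0.17 (SE; limma adjusted p = 0.997; exact permutation p = 0.00433), and lost its call without small replicate 2 or 4 (lowest 0.44). SGSM3, a GAP, rose from 0 to 6.65 CPM (median 0.613) to 1.87 to 66.3 CPM (median 10.6), by 2.43 ± 0.73 (limma adjusted p = 0.997; exact permutation p = 0.0173), and lost its call without large replicate 1 (1.90). RAB11FIP4 fell from large to spontaneous oocytes by 1.85 ± 0.64 (limma adjusted p = 0.968; exact permutation p = 0.0190), with 4.90 to 35.7 CPM (median 18.5) and then 1.20, 4.18, 5.01 and 3.96 CPM. It lost its call in 7 of 10 fits with a pool left out, and without a filter. The classifications overlapped in all 3 genes.

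In CC USP6NL, the RAB5 GAP named above, rose from 18.8 to 29.2 CPM in small pools (median 24.8) to 48.1, 39.6, 45.7, 33.9 and 34.2 CPM in spontaneous pools, a log2 fold change of 0.72 ± 0.20 (SE; limma adjusted p = 0.345; exact permutation p = 0.00433). Every spontaneous pool lay above every small pool, and the call was lost without mitochondrially encoded genes. ANKRD27, a GEF of RAB21 that also binds RAB32, fell by 0.69 ± 0.23 in the same comparison (limma adjusted p = 0.418; exact permutation p = 0.00866), from 37.2 to 90.9 CPM (median 52.7) to 26.2 to 42.1 CPM (median 33.4). Its log2 fold change was -0.85 under median-of-ratios scaling, -0.87 without mitochondrially encoded genes, -0.89 by edgeR and -0.90 by DESeq2. That of USP6NL was 0.57 under median-of-ratios scaling and 0.60 by edgeR and by DESeq2. RAB11FIP1 rose from small to large by 1.25 ± 0.43 (limma adjusted p = 0.999; exact permutation p = 0.0152), from a median of 4.91 to one of 13.6 CPM. From large to spontaneous, DENND2A, a GEF, fell by 1.39 ± 0.43 and HOOK1, which links cargo to dynein, rose by 0.94 ± 0.31 (limma adjusted p = 0.567 for each; exact permutation p = 0.0260 and 0.0173). With a pool left out, ANKRD27 kept its call in 4 of 11 fits, RAB11FIP1 in 3 of 12, DENND2A in 7 of 11 and HOOK1 in 4 of 11. HOOK1 also lost its call in 6 of 8 other settings (no filter, median-of-ratios scaling, no mitochondrially encoded genes, the replicate number as a block, edgeR and DESeq2), RAB11FIP1 without a filter or without mitochondrially encoded genes, and ANKRD27 with the block. RAB3GAP2 was not called in CC in the main fit. It was called as lower in large and spontaneous than small CC under median-of-ratios scaling, without mitochondrially encoded genes, by edgeR and by DESeq2. Its log2 fold changes there ran from -0.55 to -0.49 for small to large and from -0.55 to -0.52 for small to spontaneous.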

How the data were processed

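Amplified RNA of pooled oocytes or CC (4 complexes each) was prepared with the Ovation system and read as single-end sequences. The authors aligned the reads with Hisat2 to UMD 3.1, used featureCounts on the Ensembl annotation, and deposited CPM, in 1 table per cell type. Whole reads were recovered for 100% of values (within 0.01 of a whole number). Genes reaching 5 CPM in 4 or more oocyte pools, or in 5 or more CC pools, were tested with limma (3.58.1, trend) on log2(CPM + 1), between 2 classifications, without covariates, with Benjamini-Hochberg adjustment over all genes tested and an exact permutation test of mean CPM beside it. edgeR (4.0.16) and DESeq2 (1.42.0), which the study used on counts, served as alternatives on recovered reads. The limma, edgeR and DESeq2 fits were tried on simulated data, and the exact permutation test was not. R 4.3.3, Python 3.11.15, pandas 2.3.3 and scipy 1.17.1 were used. Genes named are those past the threshold and the 2 with the smallest p in each comparison, the 5 farthest apart between cell types in each direction, 18 RAB genes listed for their known roles, and at most 3 regulators per comparison. RAB23, RAB24, RAB29, RAB30 and RAB38, and the regulators named between cell types, were added after their values were seen. The members and lists were chosen with earlier results of these data known. The alternatives also took 0.1 as pseudocount, kept all genes or those averaging 1 CPM or more, and used median-of-ratios scaling, CPM without the mitochondrially encoded genes, the replicate number as a block, joint TMM scaling, reads thinned to 1911600 per pool (median of 10 draws), and each pool left out. No sequences, lengths or coordinates were used, since none of the build used by the authors were at hand. The values of 1 regulator are not reported here.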

Additional observations from a re-analysis of the deposited data

Results flagged for a closer look

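For the 29 named RAB genes, 162 groups of 4 to 6 pools were checked for 1 pool far from the others on the log2(CPM + 1) scale, and 13 groups held one. Chance flags about 1 in 20 groups. No RAB gene had follicle classifications apart in either cell type, so no opposite directions between cell types could arise.

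In oocytes, large replicate 3 held 12.9 CPM of RAB27A (others 25.2 to 33.0) and 7.77 CPM of RAB3A (others 0.554 to 1.62). Spontaneous replicate 3 held 187 CPM of RAB2A (others 289 to 314), and spontaneous replicate 4 held 4.01 CPM of RAB33B (others 14.9 to 15.6). Small replicate 2 held 25.4 CPM of RAB3C (others 63.1 to 72.0), and small replicate 3 held 191 CPM of RAB7A (others 215 to 226).

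In CC, large replicate 5 held 61.6 CPM of RAB35 (others 13.5 to 18.5) and 1.14 CPM of RAB3A (others 6.36 to 10.2). RAB8A was at 14.2 CPM in large replicate 2 (others 31.1 to 39.5) and at 24.3 CPM in spontaneous replicate 5 (others 32.6 to 35.4), which also held 3.31 CPM of RAB27A (others 6.69 to 7.99). Spontaneous replicate 1 held 254.9 CPM of RAB11A (others 370.3 to 414), and large replicate 6 held 8.81 CPM of RAB34 (others 14.6 to 19.3).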

How the results depend on the processing

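No RAB gene was called in any comparison under the other pseudocount, filters, scalings, tools or the replicate block. With all pools only, 1 RAB gene (RAB35) was called in oocytes from small to spontaneous. With 1 pool left out, 0 to 1 RAB genes were called in oocytes from small to spontaneous and in CC from large to spontaneous, and 0 elsewhere. The median log2 fold change of the RAB genes moved by less than the spread between pools in every alternative run, but its sign was not kept. In CC it was -0.01 from small to spontaneous and -0.02 from small to large without mitochondrially encoded genes, against 0.16 and 0.09, and by edgeR and DESeq2 it was -0.02 and -0.03 from small to spontaneous and -0.01 by each from large to spontaneous, against 0.11. In oocytes it lay between -0.05 and 0.09 over these settings and comparisons. The number of RAB genes above in oocytes was 8 to 11 under the other scalings and thinning and 10 to 13 with 1 pool left out, and that above in CC was 6 without mitochondrially encoded genes, 4 under TMM, 2 after thinning and 3 to 4 with 1 pool left out. Without mitochondrially encoded genes RAB14, RAB18 and RAB34 joined RAB12, RAB13 and RAB29.

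Regulators and effectors called changed more. In oocytes from small to spontaneous 1 was called without a filter, by edgeR and by DESeq2, against 0. From large to spontaneous 2 were called with the replicate block and by DESeq2, against 1. In CC from small to large 0 were called without a filter, and 2 under median-of-ratios scaling, without mitochondrially encoded genes, by edgeR and by DESeq2, against 1. From large to spontaneous CC 1 was called without a filter, under median-of-ratios scaling, without mitochondrially encoded genes, with the replicate block, by edgeR and by DESeq2, against 2. With 1 pool left out the calls ranged, in the order of the comparisons, from 1 to 3, 0 to 0 and 0 to 1 in oocytes and from 0 to 1, 1 to 2 and 0 to 3 in CC. The cause was not tested. Within each cell type, same-numbered pools of 2 classifications deviated from their class means with correlations of -0.19 to 0.22, over 0.1 in 4 of 30 pairs. Whether pools shared a collection batch was not tested. Nor was it tested whether same-numbered oocyte and CC pools came from the same complexes. Depth limits the CC values most, where a gene without a read could still have had up to 1.57 CPM.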
